A study of Mus musculus with 7 samples.

Results

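The E2F transcription factors E2f1 to E2f8 and their DP partners Tfdp1 and Tfdp2 were followed through knockdown of the histone methyltransferases GLP and G9a in C2C12 cells, an established line of mouse skeletal myoblasts. These 10 genes were taken by symbol from the annotation of the array, and all 10 were measured among 22180 genes with 1 symbol. Each was represented by 1 probe set, so isoforms of a gene were not separated. Cells had received an siRNA against GLP (gene Ehmt1; siGLP, 2 arrays), an siRNA against G9a (gene Ehmt2; siG9a, 3 arrays) or a control siRNA (Control, 2 arrays). All groups were transfected C2C12 cells in serum-rich growth medium, without any other labelled treatment. The labels give neither the siRNA sequences nor the time after transfection. The study asked whether the 2 related enzymes, which methylate histone H3 at lysine 9, have separate roles in myoblasts.

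E2F proteins bind DNA next to the start sites of genes for DNA replication and cell division, most of them as a dimer with a DP protein. In resting cells the retinoblastoma family of pocket proteins covers the E2Fs and keeps these genes low, and cyclin-dependent kinases lift that block when a cell enters S phase. E2f1, E2f2 and E2f3 are the activators, E2f4 and E2f5 act mainly as repressors with pocket proteins, and E2f7 and E2f8 repress without a DP partner. E2f6 does not bind pocket proteins and works with Polycomb proteins, and in human cells it was purified in a complex that also held G9a and GLP. When myoblasts leave the cell cycle to form myotubes, E2F target genes are shut off.

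Several E2F genes are known to be regulated by E2F proteins themselves, and the start-site sequences of the genes that stood lowest in siGLP are shown. RefSeq windows on GRCm38.p6, which run from 250 bases before to 50 bases after an annotated transcript start, were matched for 8 of the 10 genes (12 windows). Capitals mark matches to the E2F letters TTTCCCGC, TTTCGCGC, TTTGCCGC or TTTGGCGC and to the CCAAT box, each on either strand. The windows shown, those with E2F letters where a gene had more than 1, lie on chromosome 4 (chr4:136172024-136172323, plus strand) for E2f2, on chromosome 13 (chr13:29986014-29986313, minus strand) for E2f3 and on chromosome 7 (chr7:48881547-48881846, minus strand) for E2f8.
E2f2: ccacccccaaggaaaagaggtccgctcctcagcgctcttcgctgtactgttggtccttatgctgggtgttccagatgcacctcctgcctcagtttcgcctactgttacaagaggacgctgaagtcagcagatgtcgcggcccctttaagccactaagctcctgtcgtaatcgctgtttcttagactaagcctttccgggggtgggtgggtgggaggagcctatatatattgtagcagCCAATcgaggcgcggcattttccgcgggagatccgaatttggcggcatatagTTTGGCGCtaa
E2f3: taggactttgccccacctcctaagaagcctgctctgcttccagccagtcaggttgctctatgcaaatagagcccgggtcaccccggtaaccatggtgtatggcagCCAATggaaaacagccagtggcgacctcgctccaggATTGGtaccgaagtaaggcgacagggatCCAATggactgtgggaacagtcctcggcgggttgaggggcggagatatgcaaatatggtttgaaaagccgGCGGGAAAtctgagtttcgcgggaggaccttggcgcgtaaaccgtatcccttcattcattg
E2f8: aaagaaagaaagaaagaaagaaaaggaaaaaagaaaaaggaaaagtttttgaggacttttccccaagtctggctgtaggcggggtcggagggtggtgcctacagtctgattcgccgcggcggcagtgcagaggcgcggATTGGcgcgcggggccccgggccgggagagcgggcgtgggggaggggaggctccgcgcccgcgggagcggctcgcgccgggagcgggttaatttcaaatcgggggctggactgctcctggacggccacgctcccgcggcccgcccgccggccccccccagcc
The E2f2 window held TTTGGCGC on the plus strand at 39 to 46 bases after the start, and the E2f3 window held TTTCCCGC on the minus strand just before it, at -11 to -4. The E2f8 window held none of the 4 E2F spellings, and had 1 CCAAT box and 1 match to TTTGAA, the letters of the cell cycle genes homology region (CHR). Each of E2f2 and E2f3 had a second window, at a start 8508 bases inside the annotated bounds of E2f2 and 1673 bases inside those of E2f3, and neither held E2F letters. The second E2f2 window had 3 CCAAT boxes and 1 TTTGAA, and the second E2f3 window had 1 CACGTG. The E2f8 start lies 477 bases inside the annotated bounds of its gene and the window opens 227 bases inside them, so sequence further upstream was not searched. The same limit holds for E2f1, whose window opens 216 bases inside the gene, and for Tfdp2, whose windows open 62209 and 62752 bases inside.

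Of the 8 genes with a window, 4 held E2F letters: E2f2, E2f3, E2f7 and Tfdp1. E2F letters occurred in at least 1 window of 2.6% of the 27025 genes in the RefSeq table, and in 2.26% of its 32851 windows of the same length. The windows with E2F letters were 54.7% G or C in E2f2, 55.3% in E2f3, 75.3% in E2f7 and 78.0% and 80.7% in Tfdp1. The median over all windows was 52.7%, and the shares were not matched for base composition. The other motifs were commoner, with CCAAT in 37.4%, TTTGAA in 17.9% and the E-box CACGTG in 7.15% of windows, each searched on both strands. No E2F match overlapped a CCAAT box in the windows of these genes. Of the 30 E2F target genes of G1 and S phase with a window, 14 (46.7%) held the E2F letters. The letters were found in 2 of 7 genes for pocket proteins and the MuvB core, 1 of 13 genes of G2 and mitosis (7.69%), 1 of 8 partners and 1 of 7 germline targets of E2F6, 0 of 3 genes of E2F turnover and 0 of 5 apoptosis genes. A match is a description of the letters and does not show binding.

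**Figure D1:**
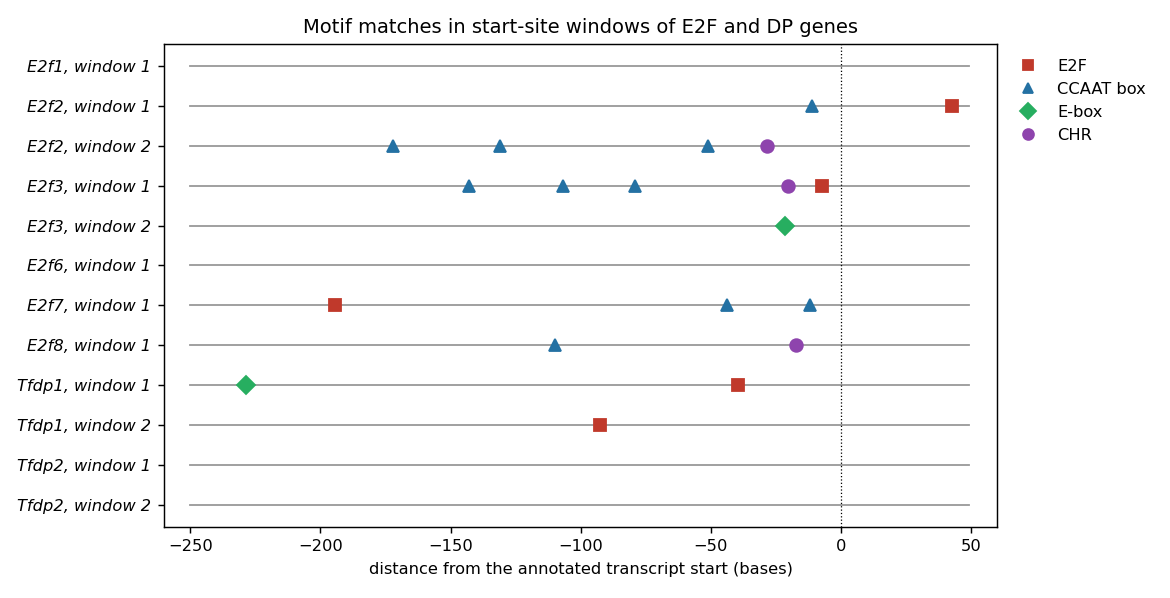
Motif matches in the 12 RefSeq start-site windows of 8 E2F and DP genes, with distance in bases from the annotated start on the x axis and 1 window per line. E2F letters (red squares) lie in windows of E2f2, E2f3, E2f7 and Tfdp1, and the windows of E2f1, E2f6 and Tfdp2 hold none of the 4 motifs, though those of E2f1, E2f8 and Tfdp2 open inside the annotated genes.

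The data were RMA log2 signals, in which background is corrected, arrays are quantile normalized and the probes of a set are summarised. The median over all probe sets lay between 4.54 and 4.59 on the 7 arrays, and Pearson's r between arrays across genes was 0.996 to 0.9969 within groups and 0.9945 to 0.9965 between groups. The targeted transcripts followed their labels. Ehmt1 was 5.73 and 6.13 in siGLP, against 6.71 and 6.73 in Control (a difference of -0.79 log2 units with SE 0.14, at a limma adjusted p of 0.197). Ehmt2 was 6.31, 6.14 and 5.99 in siG9a, against 7.56 and 7.46 in Control (-1.37, SE 0.10; limma adjusted p = 0.0308), a call lost in 10 of 17 alternatives, among them the omission of any 1 of the 7 arrays (adjusted p up to 0.426). All 5 myoblast markers (Myod1, Myf5, Des, Cdh15, Vim) lay above the upper quartile of probe sets in Control, while 5 of 6 leukocyte, endothelial and epithelial markers lay below the median, with Ptprc, which marks leukocytes, at 2.80 in both Control arrays. Cd14, singled out after its values were seen, was the exception, at 7.86 and 7.54 in siGLP, 7.73, 7.54 and 7.98 in siG9a and 7.01 and 7.20 in Control. The labels do not say whether replicates came from separate cultures, and the p-values may therefore reflect technical spread alone.

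All 10 E2F and DP genes lay above the array median on every array, and 7 lay above the upper quartile (6.85 to 6.90) on every array. Group differences were tested with limma over all 22180 genes at a Benjamini-Hochberg adjusted p under 0.05, and no E2F or DP gene passed in any comparison. In siGLP versus Control 0 of 10 passed, against 0.00451% of all genes, and 4 of 10 had an unadjusted p under 0.05, against 8.63% of all genes. Of these 4, 3 were lower (4.13% of all genes) and 1 was higher (4.51%). In siG9a versus Control 0 of 10 passed, against 0.0271% of all genes, and 0 had an unadjusted p under 0.05, against 10.5%. In siGLP versus siG9a 0 of 10 passed, against 0.234%, and 5 had an unadjusted p under 0.05, against 12.4%. Of these 5, 4 were lower (6.57% of all genes) and 1 was higher (5.87%). None of the shares of all genes, here or below, was matched for signal level. The median size of the difference, whatever its sign, was 0.13 log2 units for the 10 genes and 0.086 for all genes in siGLP versus Control, and 0.072 for the 10 and 0.086 for all genes in siG9a versus Control.

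**Figure D2:**
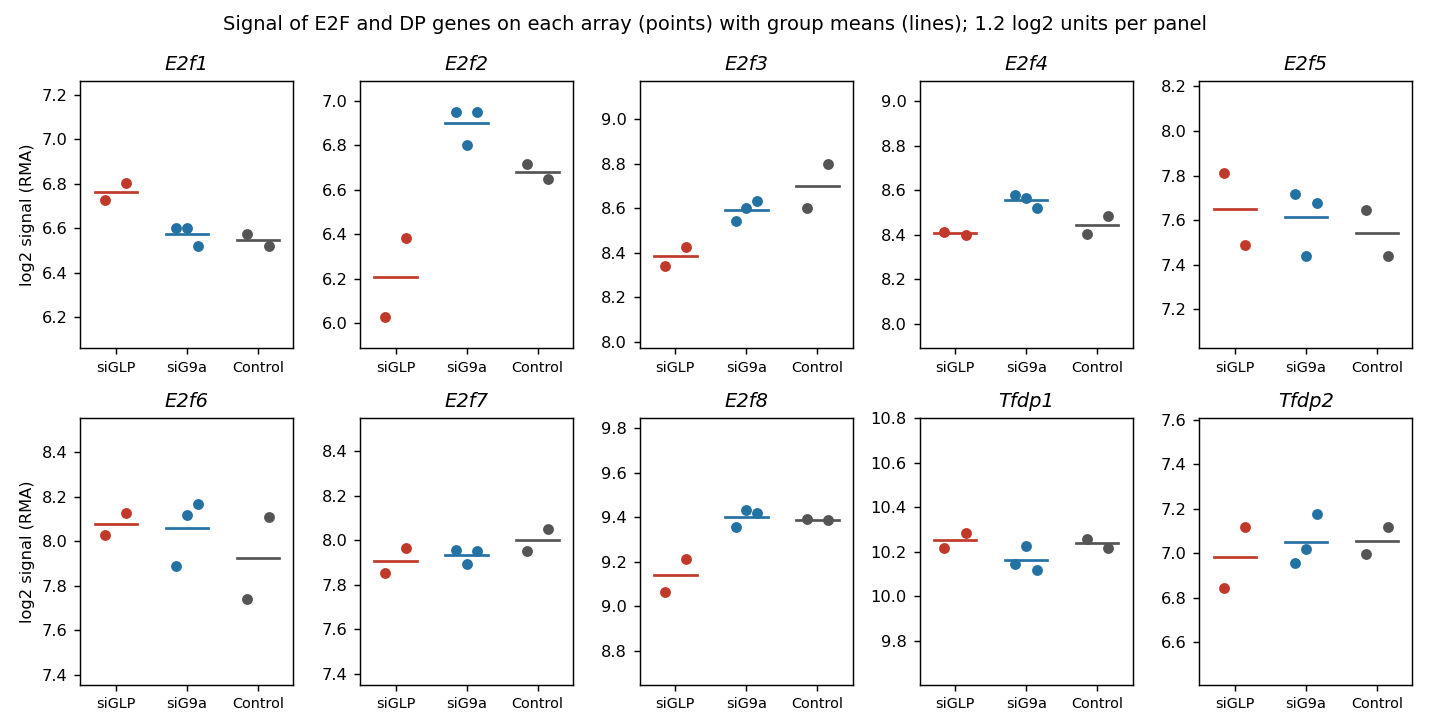
RMA log2 signal of the 10 E2F and DP genes (y axis; every panel spans 1.2 log2 units) on each array (points) with group means (lines), for siGLP (2 arrays), siG9a (3) and Control (2). E2f2 is the only gene of the 10 whose groups are all apart, with siGLP at 6.03 and 6.39 at the bottom and siG9a at 6.80 to 6.95 at the top.

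Among the activators, E2f2 gave the largest difference of the 10 genes. E2f2, which drives S phase entry together with E2f1 and E2f3, had a log2 signal of 6.03 and 6.39 in siGLP, 6.95, 6.80 and 6.95 in siG9a, and 6.71 and 6.65 in Control. Both siGLP arrays lay below both Control arrays, and all 3 siG9a arrays lay above them. Of all 22180 genes, 314 (1.42%) showed that order of the 3 groups without overlap. The difference from Control was -0.48 in siGLP (SE 0.12, 95% confidence interval -0.77 to -0.18; 1.39-fold lower; limma adjusted p = 0.351) and 0.22 in siG9a (SE 0.11, interval -0.05 to 0.49; limma adjusted p = 0.569). Without siGLP 1 the siGLP difference from Control was -0.30, and without siGLP 2 it was -0.65. Set directly against each other, siGLP lay 0.69 below siG9a (SE 0.11, interval -0.96 to -0.42; 1.62-fold lower; limma adjusted p = 0.0768, rank 151 of all genes by p). That comparison passed when the dimmer 50% of genes (limma adjusted p = 0.0277) or the dimmest 30% (0.0487) were removed before the fit and under a trended, robust variance model (0.0363), and over all alternatives the adjusted p ran from 0.0277 to 0.291. The siGLP arrays themselves differed by more than those of any other group (SD 0.25 in siGLP, 0.087 in siG9a and 0.047 in Control).

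E2f3, the activator transcribed from separate start sites as a long and a short form, stood at 8.34 and 8.43 in siGLP, 8.54, 8.60 and 8.63 in siG9a and 8.60 and 8.80 in Control. Both siGLP arrays lay below every other array, and siG9a overlapped Control. The difference of siGLP from Control was -0.32 (SE 0.088, interval -0.53 to -0.11; limma adjusted p = 0.38), and that of siG9a was -0.11 (SE 0.080; limma adjusted p = 0.679). From siG9a, siGLP differed by -0.21 (SE 0.080; limma adjusted p = 0.363). The 2 Control arrays were 0.20 apart in this gene, and the siGLP difference from Control was -0.22 without Control 2 and -0.42 without Control 1.

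E2f1, the activator that can also set off apoptosis, lay on the other side of Control in siGLP. Its signal was 6.73 and 6.80 in siGLP, 6.60, 6.60 and 6.52 in siG9a and 6.57 and 6.52 in Control. Both siGLP arrays were above the other 5, which overlapped each other. The difference was 0.22 for siGLP minus Control (SE 0.071, interval 0.05 to 0.39; limma adjusted p = 0.441) and 0.19 for siGLP minus siG9a (SE 0.065; limma adjusted p = 0.303). For siG9a minus Control it was 0.028 (SE 0.065, interval -0.13 to 0.18; limma adjusted p = 0.911).

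The atypical repressors E2f7 and E2f8, which bind E2F sites without a DP protein and dampen the activators in a feedback loop, did not pass in any comparison. E2f8 had a signal of 9.06 and 9.21 in siGLP, 9.36, 9.43 and 9.42 in siG9a, and 9.39 in both Control arrays. The siGLP arrays lay below all others, and siG9a overlapped Control. The difference was -0.25 for siGLP minus Control (SE 0.077, interval -0.43 to -0.07; limma adjusted p = 0.42) and -0.26 for siGLP minus siG9a (SE 0.070; limma adjusted p = 0.202), and 0.013 for siG9a minus Control (SE 0.070; limma adjusted p = 0.971). E2f7 had 7.85 and 7.97 in siGLP, 7.96, 7.90 and 7.95 in siG9a and 7.95 and 8.05 in Control. All its groups overlapped, with differences from Control of -0.092 in siGLP (interval -0.27 to 0.09) and -0.066 in siG9a (interval -0.23 to 0.10).

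The repressors that work with pocket proteins gave no difference past the threshold. E2f4, the main E2F of resting cells, had 8.41 and 8.40 in siGLP, 8.58, 8.57 and 8.52 in siG9a and 8.40 and 8.48 in Control. The 3 siG9a arrays lay above all 4 others, and siGLP overlapped Control. The difference was -0.036 for siGLP minus Control (limma adjusted p = 0.927), 0.11 for siG9a minus Control (SE 0.062, interval -0.03 to 0.26; limma adjusted p = 0.592) and -0.15 for siGLP minus siG9a (SE 0.062; limma adjusted p = 0.398). E2f5, its close relative, had 7.81 and 7.49 in siGLP, 7.72, 7.44 and 7.68 in siG9a and 7.64 and 7.44 in Control, and its groups overlapped in all comparisons. E2f5 differed from Control by 0.11 in siGLP (interval -0.24 to 0.45) and by 0.070 in siG9a (interval -0.24 to 0.38). The difference of E2f5 turned sign when single arrays were left out, running from -0.053 to 0.27 in siGLP and from -0.032 to 0.17 in siG9a.

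E2f6, the Polycomb-linked E2F, had 8.03 and 8.13 in siGLP, 7.89, 8.12 and 8.17 in siG9a and 7.74 and 8.11 in Control. The groups overlapped, and the Control arrays alone spanned 0.37 log2 units, the widest Control spread of the 10 genes (SD 0.26). Differences from Control were 0.15 in siGLP (SE 0.14, interval -0.19 to 0.49; limma adjusted p = 0.834) and 0.13 in siG9a (SE 0.13, interval -0.18 to 0.44; limma adjusted p = 0.764), and without Control 1 both turned below 0 (-0.033 and -0.053). The direction for E2f6 was thus not settled.

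The DP partners stayed near Control. Tfdp1, the common dimer partner, had 10.22 and 10.28 in siGLP, 10.15, 10.22 and 10.12 in siG9a and 10.26 and 10.22 in Control. Its differences were 0.013 in siGLP (interval -0.16 to 0.18) and -0.074 in siG9a (interval -0.23 to 0.08). Tfdp2, whose product can also dimerise with E2Fs, had 6.84 and 7.12 in siGLP, 6.96, 7.02 and 7.17 in siG9a and 6.997 and 7.12 in Control, with differences of -0.075 in siGLP (interval -0.36 to 0.21) and -0.007 in siG9a (interval -0.26 to 0.25). Groups overlapped for both genes.

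**Figure D3:**
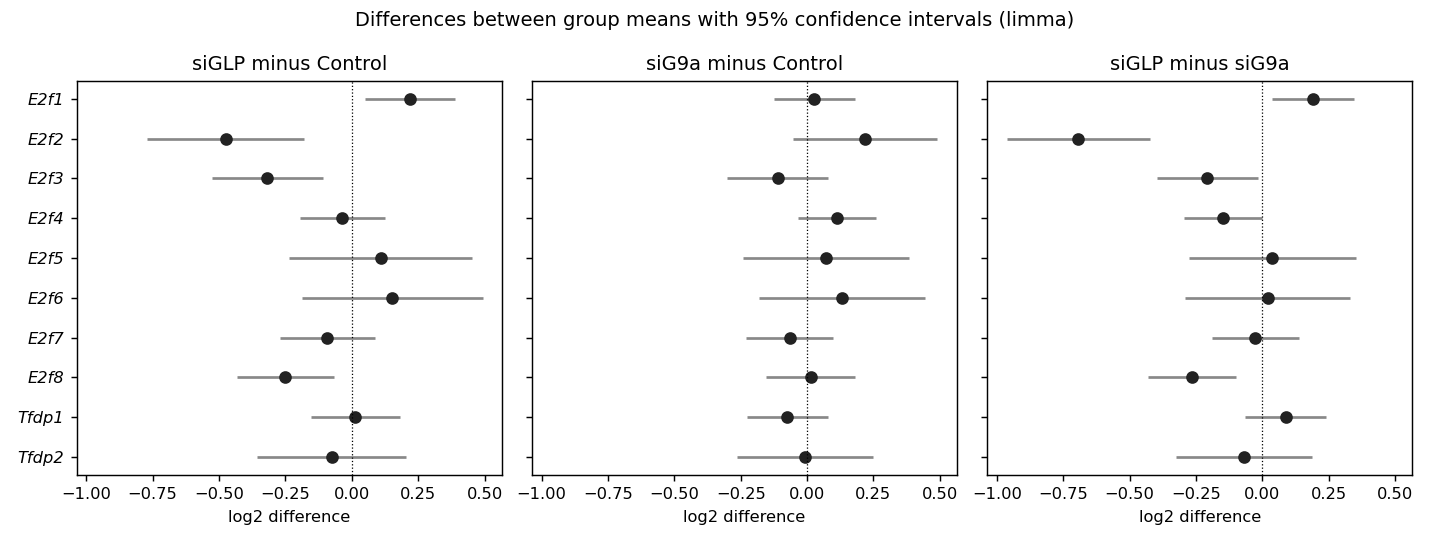
Log2 difference between group means (points) with unadjusted 95% confidence intervals (lines) for each E2F and DP gene, in siGLP minus Control, siG9a minus Control and siGLP minus siG9a. In siGLP minus Control the intervals of E2f1, E2f2, E2f3 and E2f8 exclude 0, with E2f1 on the higher side, and in siG9a minus Control none does.

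Read by overlap, the siGLP arrays were apart from Control in 4 of the 10 genes (E2f2, E2f3 and E2f8 below, E2f1 above), against 34.2% of all genes. The siG9a arrays were apart from Control in 2 (E2f2 and E2f4, above), against 25.7% of all genes. The siGLP arrays were apart from siG9a in 5 (E2f2, E2f3, E2f4 and E2f8 below, E2f1 above), against 26.3%. The 2 shares against Control are near those of all genes, and both rest on the same Control arrays. The overlap of siGLP with siG9a uses no Control array but reuses the knockdown arrays of the other 2 comparisons. Its share lay above that of all genes, in a list of 10 genes, and that excess was not tested. The mean level of the 5 myoblast markers was 9.33 and 9.40 in siGLP, 9.40, 9.35 and 9.23 in siG9a and 9.53 and 9.58 in Control. It was thus lower in both knockdowns, with 5 of 5 markers below Control in siGLP and 3 of 5 in siG9a. None of the 5 passed. In siG9a Des differed from Control by -0.095, Myf5 by 0.13 and Vim by 0.0072. Cdh15 differed from Control by -0.51 in siGLP and in siG9a, and Myod1 by -0.0025 in siGLP and -0.68 in siG9a. Both were singled out after their values were seen. The mean of the 6 leukocyte, endothelial and epithelial markers was 4.59 and 4.41 in siGLP, 4.38, 4.47 and 4.56 in siG9a and 4.35 and 4.37 in Control. The mean of the 5 myotube markers (Myog, Myh3, Ckm, Acta1, Mymk) was 5.07 and 5.03 in siGLP, 5.25, 5.19 and 5.11 in siG9a and 5.22 and 5.37 in Control, and none of them passed. Mymk, a membrane protein that fuses myoblasts, had 5.61 and 5.64 in siGLP, 6.05, 6.11 and 5.98 in siG9a and 6.34 in both Control arrays, and its difference of siGLP from Control was -0.71 (SE 0.070; limma adjusted p = 0.133, rank 3 of all genes by p). It was singled out after its values were seen. Of the 5 myotube markers, 3 lay below Control in siGLP, while Acta1 (0.082) and Myh3 (0.017) lay above it. The part of the myoblast, myotube and other markers in the E2F values was not tested.

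E2F target genes of G1 and S phase, which encode the replication machinery, were examined next, with 35 of 40 listed genes measured. None passed in any comparison. In siGLP 19 of 35 lay below Control with a median of -0.020, against 49.2% of all genes and a median of 0.0015. In siG9a 32 of 35 lay below Control with a median of -0.14, against 48.0% of all genes and a median of 0.0052. In Control 34 of the 35 lay above the upper quartile of probe sets, and these shares of all genes were not matched for level. Set directly against siG9a, 29 of 35 lay higher in siGLP and 6 lower (median 0.11). Of all genes, 51.4% lay lower, with a median of -0.0037. This count reuses the siG9a arrays of the comparison with Control, so it is not a separate result. The mean level of the 35 was 8.79 and 8.84 in siGLP, 8.72, 8.71 and 8.68 in siG9a and 8.84 in both Control arrays. The siG9a arrays were thus the lowest in this list, while E2f2, E2f3 and E2f8 themselves were lowest in siGLP. The smallest p-values in siG9a belonged to the clamp loader subunit Dscc1 (-0.42), the helicase subunits Mcm2 (-0.23) and Mcm3 (-0.18), and Uhrf1, which links replication to DNA methylation (-0.26), with limma adjusted p from 0.141 to 0.384. In siGLP they belonged to the helicase factor Cdc45 (-0.19), the flap nuclease Fen1 (-0.22), the histone chaperone subunit Chaf1b (-0.25) and the licensing factor Cdt1 (0.14), with limma adjusted p from 0.537 to 0.746. The list median in siGLP changed sign in 1 of 17 alternatives (lowest -0.034, highest 0.0082), and in siG9a it stayed between -0.14 and -0.12.

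Genes of G2 and mitosis, which are switched through the DREAM complex and FoxM1, gave 9 of 15 below Control in siGLP (median -0.062) and 12 of 15 below Control in siG9a (median -0.083), and none passed. Of all genes, 49.2% lay below Control in siGLP and 48.0% in siG9a. All 15 listed genes lay above the upper quartile of probe sets in Control, and these shares were not matched for level. Cyclin A2 (Ccna2, -0.26) and the kinesin gene Kif23 (-0.16) had the smallest p in siGLP, followed by Top2a, the topoisomerase of dividing cells (-0.18), and the cyclin gene Ccnb2 (0.11), with limma adjusted p from 0.458 to 0.724. In siG9a they were the centromere genes Cenpf (-0.28) and Cenpe (-0.25), Top2a (-0.21) and Kif23 (-0.14), with limma adjusted p from 0.305 to 0.507. The mean of the 15 genes was 9.77 and 9.85 in siGLP, 9.82, 9.79 and 9.75 in siG9a and 9.88 and 9.87 in Control. The mean on all knockdown arrays was thus below that on both Control arrays, though siGLP 2 (9.852) lay close to Control 2 (9.867). In siGLP 6 of the 15 genes were higher than Control.

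The regulators that hold or release E2Fs gave no gene past the threshold. Of 9 genes for pocket proteins and the MuvB core of the DREAM complex, 3 lay below Control in siGLP and 3 in siG9a. Among all genes the shares were 49.2% and 48.0% in the same order. The pocket protein genes Rbl2 (0.37, limma adjusted p = 0.179) and Rb1 (0.27, limma adjusted p = 0.499) stood higher than Control in siG9a, where the MuvB subunit genes Lin9 and Lin37 stood at -0.39 (limma adjusted p = 0.289) and 0.15 (limma adjusted p = 0.714). The siG9a arrays of these 4 genes did not overlap Control, as in 25.7% of all genes. In siGLP the 4 genes with the smallest p were Mybl2, the Myb protein that replaces E2F on MuvB (-0.20), Lin52 (0.14), Rb1 (-0.14) and Lin9 (-0.12), with limma adjusted p from 0.735 to 0.842. Skp2, whose ubiquitin ligase acts on E2F1, stood at 0.31 in siGLP (limma adjusted p = 0.273) and 0.20 in siG9a (limma adjusted p = 0.364), and Fzr1, an activator of the anaphase-promoting complex, at 0.090 and 0.11 in the same order. The knockdown arrays of Skp2 and Fzr1 all lay above Control, where 34.2% of all genes did not overlap Control in siGLP and 25.7% in siG9a.

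Partners and germline targets of E2f6 were included because that factor has been found with G9a and GLP. Of 10 Polycomb complex (PRC1.6) partners, 8 lay below Control in siGLP (median -0.056) and 7 in siG9a (median -0.067), and none passed. The shares of all genes below Control were 49.2% in siGLP and 48.0% in siG9a. Yaf2, a RING1-binding subunit, had the smallest p in siGLP (-0.22, limma adjusted p = 0.441), before the ubiquitin ligase gene Ring1 (-0.12), Wdr5 (-0.099) and Rybp (-0.14). In siG9a it was the heterochromatin protein gene Cbx3 (-0.19, limma adjusted p = 0.461), before Wdr5 (-0.14), Pcgf6, the defining subunit of the complex (-0.18), and Yaf2 (-0.10). Of the germline targets 5 of 7 were measured, all below the median of probe sets in Control (2.20 to 3.60), and none had an unadjusted p under 0.05 in any comparison. Stag3, a meiotic cohesin subunit, differed by 0.095 in siGLP and 0.11 in siG9a, the meiotic cohesin gene Smc1b by -0.091 and -0.10 and the germline TAF gene Taf7l by 0.081 and 0.085, each in the same order. The mitochondrial carrier gene Slc25a31 differed by 0.049 in siGLP and the piRNA factor gene Mael by -0.16 in siG9a. At such levels the probe sets may report background alone.

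Of 6 measured apoptosis genes linked to E2F1, 1 passed in siG9a versus Control, against 0.0271% of all genes, and the same gene passed in siGLP versus siG9a, against 0.234%. None passed in siGLP versus Control (0.00451% of all genes). The list was chosen with earlier results of these data known, so these shares do not measure an excess among its genes. Api5, whose product blocks apoptosis driven by E2F1, had a log2 signal of 9.37 and 9.24 in siGLP, 8.71, 8.66 and 8.67 in siG9a and 9.39 and 9.41 in Control. It fell by 0.72 in siG9a (SE 0.066; limma adjusted p = 0.048), a call lost in 10 of 17 alternatives, among them the omission of any 1 of the 7 arrays (adjusted p up to 0.426), and differed by -0.095 in siGLP (limma adjusted p = 0.785). Set directly, siGLP was 0.63 above siG9a (SE 0.066; limma adjusted p = 0.0356), so the 2 knockdowns differed in Api5, a call lost in 10 of 17 alternatives, again with any 1 array omitted (adjusted p up to 0.224). In siG9a the apoptosome gene Apaf1 stood at 0.15, the death effector Bcl2l11 at 0.14 and Pmaip1 at 0.079, with limma adjusted p from 0.611 to 0.732. In siGLP Bcl2l11 stood at -0.24, Bbc3 at -0.14 and Pmaip1 at 0.064, with limma adjusted p from 0.689 to 0.875.

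**Figure D4:**
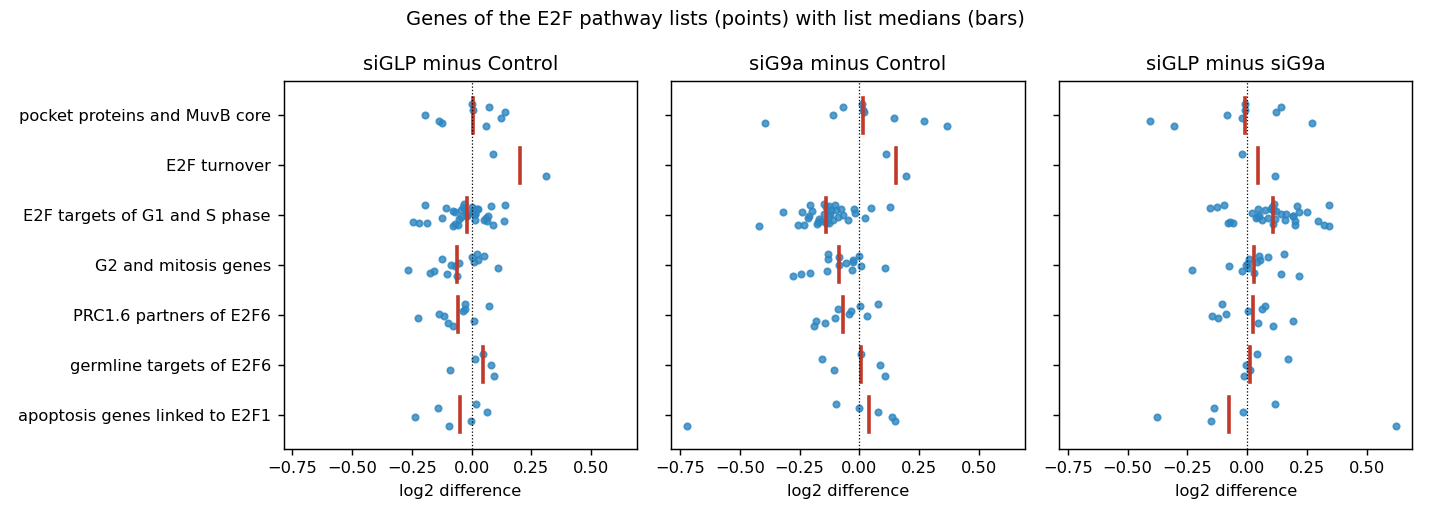
Log2 differences of the measured genes in 7 lists around the E2F pathway (points) with the list medians (bars), in siGLP minus Control, siG9a minus Control and siGLP minus siG9a. In siG9a minus Control most of the 35 G1 and S phase targets lie left of 0 (median -0.14), and Api5 is the outermost point at -0.72.

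The genes whose pattern over the 7 arrays was most like that of 4 cell-cycle regulated E2Fs were found by Pearson's r among 11080 genes above the median level, as a description. Mtf1 (0.991), Gm5914 (0.989) and Cant1 (0.985) were nearest to E2f2. Mtf1, a zinc-sensing transcription factor, had 7.73 and 7.88 in siGLP, 8.16, 8.07 and 8.20 in siG9a and 8.04 in both Control arrays, in the same order of groups as E2f2. Gnai3 (0.996), Spns1 (0.99) and Cox17 (0.989) were nearest to E2f8, Gpd2 (0.981), Tecr (0.98) and Acsl4 (0.972) to E2f1, and Bhlhe41 (0.991), Sun1 (0.967) and Plat (0.966) to E2f7. With 7 points drawn from 3 groups and this many candidates, high values of r arise readily.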

How the data were processed

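Total RNA of 7 C2C12 samples was hybridised to single-colour Affymetrix whole transcript arrays, per the labels' protocols. The authors deposited log2 values per probe set, made with RMA and Partek per the submitters' processing notes (versions not stated). That the values are log2 was read from their range. The sources used here give no scan date or batch.

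Of 33649 probe sets, 23521 had 1 gene symbol in the platform annotation, 1814 several and 8314 none. Symbols were checked through gene numbers against RefSeq (GRCm38.p6; 23328 matched), and the probe set with the highest mean was kept, leaving 22180 genes. Limma 3.58.1 in R 4.3.3 (lmFit, eBayes, two-sided) fitted 1 mean per group over all 7 arrays without a filter (4 residual degrees of freedom, 6.89 with moderation), and p-values were adjusted by Benjamini-Hochberg over all genes. Folds were obtained as powers of 2 of the log2 differences. The script was tested on simulated data. Alternatives changed the probe set rule, filter, normalization, variance model, arrays and replicate block.

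The 10 genes and the 7 pathway lists (93 genes, 82 measured) were chosen with earlier results of these data known. The genes named were the 10, both targets, the 4 with the smallest p per list and contrast with Control, and the 3 with the highest r for E2f1, E2f2, E2f7 and E2f8. Values of the markers Ptprc, Cd14, Mymk, Cdh15, Myod1, Des, Myf5, Vim, Acta1 and Myh3 were given outside this rule. The number of arrays limits the precision.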

Additional observations from a re-analysis of the deposited data

Results flagged for a closer look

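In E2f2 and E2f4 every siGLP array lay below the Control mean and every siG9a array above it. The share of all genes with that pattern was not counted, so whether it is unusual cannot be told. The stricter order without overlap, which E2f2 met and E2f4 did not, held in 1.42% of all genes. The direct difference, siGLP minus siG9a, was -0.69 in E2f2 (limma, Benjamini-Hochberg adjusted p = 0.0768) and -0.15 in E2f4 (limma adjusted p = 0.398), so neither passed the test of the difference itself. The 2 siGLP arrays of E2f2 were 0.36 apart, and with either of them left out the difference was -0.87 or -0.51. In E2f4 the siGLP mean lay 0.036 below Control, and it was 0.0058 above Control without Control 2.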

How the results depend on the processing

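No E2F or DP gene passed in siGLP or siG9a against Control under any of the 17 alternatives, and 1 (E2f2) passed in siGLP minus siG9a under both filters on level and the trended, robust variance model. The number of all genes past the threshold was 1 in siGLP, 6 in siG9a and 52 in siGLP minus siG9a. With genes under the median level omitted it was 21, 148 and 350 in that order, and with the trended, robust model 23, 100 and 304. With genes under the 30th percentile omitted it was 30 in siG9a and 171 in siGLP minus siG9a, with quantile normalization 16 and with median centring 12 in siG9a. It was 0 in both knockdowns and 3 in siGLP minus siG9a without variance moderation, and 0 in all comparisons with only the 2 groups compared in the fit. Without single arrays it was 0 to 1 in siGLP, 0 in siG9a and 0 in siGLP minus siG9a. With the replicate block it was also 0 in all comparisons. Arrays of the same number had deviations from their group means that correlated at 0.005 to 0.172 across genes. Arrays of different numbers were not set beside them, so whether the numbers pair samples is not settled. The main fit did not use the numbers. The causes of these shifts were not tested.

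Among the 30 differences of the 10 genes, signs turned only in those of 0.1517 or less in size. E2f1 in siG9a was -0.0073 with quantile normalization, and Tfdp1 in siGLP was -1e-04 with median centring. Without single arrays the ranges that crossed 0 in siGLP minus Control were -0.0775 to 0.0058 for E2f4, -0.053 to 0.2694 for E2f5, -0.0325 to 0.336 for E2f6, -0.0208 to 0.0475 for Tfdp1 and -0.2138 to 0.0634 for Tfdp2. In siG9a minus Control they were -0.0318 to 0.1725 for E2f5, -0.0529 to 0.3156 for E2f6, -0.0018 to 0.0366 for E2f8 and -0.0694 to 0.0522 for Tfdp2. In siGLP minus siG9a they were -0.1233 to 0.199 for E2f5, -0.0639 to 0.0749 for E2f6, -0.0828 to 0.0299 for E2f7 and -0.2068 to 0.0703 for Tfdp2. Among the listed genes named above, each in the comparison that named it, ranges without single arrays reached or crossed 0 for Taf7l (-0.0075 to 0.1687), Pmaip1 (-0.0095 to 0.1365), Lin9 (-0.2523 to 0.0074), Rybp (-0.3054 to 0.0347), Smc1b (-0.1837 to 0.0013) and Bbc3 (-0.2772 to 0) in siGLP, and for Taf7l (-0.0027 to 0.1735) and Mael (-0.3397 to 0.025) in siG9a.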
